A study of Mus musculus with 9 samples.

Results

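The Kcn genes encode potassium channel subunits, and 71 of them are described here in neuronal nuclei of the mouse cortex. They were taken by symbol from the 55401 genes in the count tables: of 99 genes whose symbol begins with Kcn, 5 antisense or opposite-strand transcripts were left out by name, and 71 of the other 94 had at least 100 counts summed over the 9 libraries. Another 23 fell below that sum. Just inside it were Kcnk6 with 119 counts and Kcnj16 with 127, and just outside it were Kcng4 with 99 and Kcnj14 with 94. The label of a voltage-gated family covers only a portion of what the symbol collects. Voltage-gated pore subunits made up 36 of the 71 members, 26 were pore subunits of other kinds, and 9 were auxiliary subunits that form no pore. The 26 were 10 inward rectifiers, 9 K2P leak channels and 7 genes of a calcium- or sodium-activated class. Kcnu1 was placed in that class only as a relative of the BK channel. No Kcne gene and not Kcnrg reached the sum.

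The libraries fall into 3 groups of 3. Mice carrying the P301S Tau transgene, a human Tau mutant that forms aggregates in neurons, received either the Cdk5i peptide, named for the kinase Cdk5, or a scrambled peptide, in both cases at 20 mg/kg by injection into the peritoneum every other day. The reference is wild-type mice with no treatment, so the transgene and the injections cannot be told apart in any comparison with wild type. The mice were 7 to 9 months old, nuclei positive for the neuronal protein NeuN were sorted from cortex, and total nuclear RNA was sequenced. The transgene's promoter and strain are not given in the sources used here, and neither is the number of animals behind a library; p-values therefore refer to the spread among libraries, which may be technical. Cdk5i against scrambled peptide asks what the peptide does in P301S mice, and scrambled peptide against wild type asks how treated P301S mice stand to untreated wild type. The comparisons share groups and are not independent of each other.

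Libraries held 21584712 to 26715938 counts, of which the 71 genes took 2.38% to 2.69%. Neuronal markers were set beside those of other cells. The summed level of 12 excitatory neuron markers averaged 1732 CPM (counts scaled to library size) in Cdk5i, 1716 in scrambled and 1659 in wild-type libraries, while 12 astrocyte markers averaged 929, 876 and 959 CPM, 10 oligodendrocyte precursor markers 579, 535 and 576 CPM, 14 oligodendrocyte markers 195, 212 and 171 CPM and 10 endothelial markers 4.14, 3.91 and 4.19 CPM. Genes listed as glial markers were thus read in nuclei sorted for NeuN, and which cells gave those counts was not tested. Several lists differed between groups or libraries. The 12 striatal neuron markers, some of which cortical neurons also express, summed to 3138 to 4299 CPM in Cdk5i, 2176 to 3195 in scrambled and 2221 to 3495 in wild-type libraries, and the 12 inhibitory neuron markers to 3028 to 3300 CPM in Cdk5i, 2594 to 2908 in scrambled and 2943 to 3465 in wild-type libraries. The oligodendrocyte markers summed to 166 to 213 CPM in Cdk5i, 197 to 225 in scrambled and 168 to 176 in wild-type libraries, the choroid plexus markers to 79.7 to 104, 101.7 to 111 and 80.6 to 91.5 CPM, and the 12 microglia markers to 59.6 to 136, 71.4 to 84.3 and 56.6 to 162 CPM. For oligodendrocyte and choroid plexus markers, lists that share the gene Enpp2, the scrambled libraries lay above wild type without overlap. They lay below it without overlap for the inhibitory neuron markers and for the 8 somatostatin neuron markers (179 to 185 CPM in scrambled, 193 to 200 in wild-type libraries). No marker of these lists was at 0 in all libraries, but some had too few counts to be tested. The low-count filter was passed by all excitatory, inhibitory, striatal and astrocyte markers and by 12 of the 14 oligodendrocyte markers. It was passed by 6 of the 10 oligodendrocyte precursor, 5 of the 10 endothelial, 7 of the 12 microglia and 4 of the 8 choroid plexus markers. The part of these differences in the results below was not tested. In nuclei from a tissue, fewer cells of a type and less RNA per cell cannot be told apart.

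Voltage-gated potassium channels open on depolarization and let potassium leave the cell, which ends the action potential, sets firing rate and limits the return of signals into dendrites. Calcium- and sodium-activated channels do so in response to those ions, inward rectifiers and K2P channels hold the resting potential, and auxiliary subunits alter the trafficking and gating of the pores they bind. All pores share a selectivity filter, a short stretch of the pore loop whose backbone oxygens bind potassium.

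The filter is the sequence that the pore-forming members share. Its codons are shown here for members of several kinds, read from GENCODE M21 transcripts on GRCm38. Each line is 30 bases of the coding strand, 5′ to 3′, with the 5 signature codons in capitals: threonine or serine, any residue, glycine, tyrosine or phenylalanine, glycine.
Kcna1 (Kv1, chr6:126642219-126642248, minus strand): atgaccACTGTGGGATACGGTgacatgtac
Kcnc2 (Kv3, chr10:112456223-112456252, plus strand): atgactACCTTAGGTTACGGGgatatgtac
Kcnv1 (silent modifier, chr15:45109280-45109309, minus strand): atgactACAGTAGGATATGGGgacattaga
Kcnh7 (EAG, chr2:62777334-62777363, minus strand): ctaaccAGTGTAGGATTTGGAaatgtgtct
Kcnma1 (BK, chr14:23528404-23528433, minus strand): atgtctACAGTGGGTTATGGGgacgtttat
Kcnt1 (sodium-activated, chr2:25894361-25894390, plus strand): ttctcaACTGTGGGCTTCGGTgatgtgacg
Kcnj9 (inward rectifier, chr1:172326175-172326204, minus strand): gagaccACCATCGGCTATGGGcaccgggtc
Kcnk9 (K2P, second loop, chr15:72512710-72512739, minus strand): ttgactACTATAGGGTTCGGCgattttgtg

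The search read the longest complete coding sequence of each gene in frame, with ACN, TCN, AGT or AGC as the first codon, NNN and GGN next, then TAN, TTT or TTC, and GGN last. A signature was found in all 62 pore-forming members and in 0 of the 9 auxiliary members, against 572 (2.66%) of 21531 coding genes. The codons searched for were written to cover the filter forms of potassium channels, so these counts describe the members and test nothing. The threonine and tyrosine form was the usual one, in 44 members. The 3 small-conductance Kcnn genes had serine and tyrosine, and 7 of the 8 EAG genes had serine and phenylalanine. A repeated signature was found in 7 members, all of them among the 9 K2P genes, whose subunits carry a pair of pore loops.

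The level of the 71 genes was dominated by a few long ones. Kcnip4, which encodes a calcium-binding KChIP protein that attaches to Kv4 channels, had 8808, 8238 and 7247 CPM in the Cdk5i, 8585, 7454 and 9083 CPM in the scrambled and 8322, 8705 and 8062 CPM in the wild-type libraries. The groups overlapped, and Kcnip4 alone held 32.5% of all member CPM. Next came Kcnma1, the BK channel pore, with 11.4%, Kcnd2, the Kv4.2 pore of dendritic A-type current, with 9.08%, the M-current pores Kcnq3 with 6.74% and Kcnq5 with 6.32%, and the EAG-type pore Kcnh7 with 5.23%. These 6 genes took 71.3% of member CPM. All are long, and the counts include introns.

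On a scale of CPM per kb of gene, which allows genes to be compared, the members spanned 0.0102 for Kcnj16 to 7.29 for Kcnip4, with a median of 1.13. Of the 71, 14 lay at or above the 95th percentile of the 16046 genes tested and 9 below the 25th. Among the highest beside Kcnip4 were Kcna1 with 6.97 CPM per kb, Kcnj9 with 6.85 and Kcnq3 with 5.72. Kcna1 is the Kv1.1 pore of axons, Kcnj9 is a subunit of G protein-gated inward rectifiers, and Kcnq3 is a subunit of the M-current channel. Per length, Kcna1 lay at 7.31 ± 0.46 in Cdk5i, 7.45 ± 0.23 in scrambled and 6.15 ± 0.33 in wild-type libraries, and Kcnip4 at 7.13 ± 0.70, 7.38 ± 0.74 and 7.37 ± 0.28 (SD, n = 3 each), so these neighbours in the order did not differ beyond their spread in the peptide groups, while in wild type Kcnip4 lay above Kcna1 by more than it. The lowest were Kcnj16, Kcnq1, a pore known from heart and epithelia, Kcnu1, a BK relative of sperm, and Kcnj10, at 0.0289 CPM per kb or less. Exons covered 0.319% of Kcnip4 and 79.8% of Kcna1, so a level per length weighs spliced and unspliced RNA differently in the 2 genes.

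**Figure D1:**
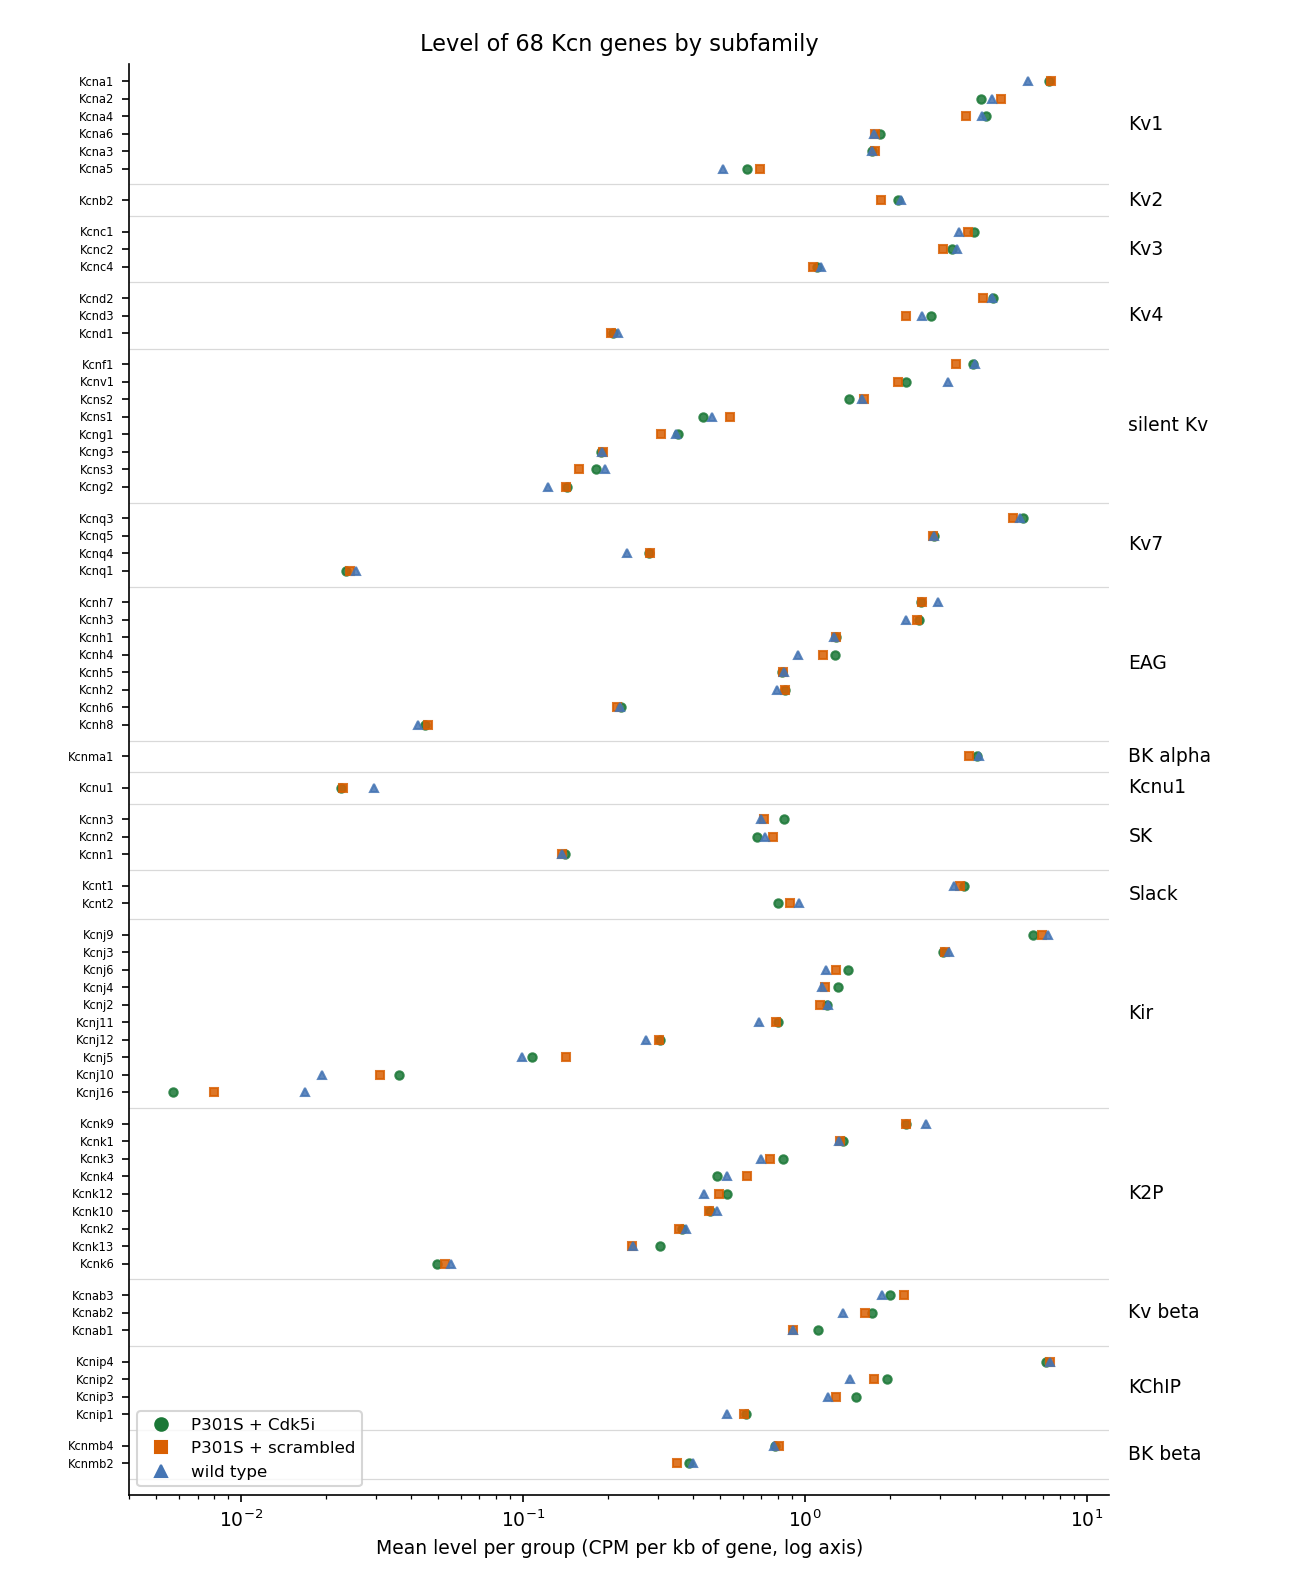
Mean level in CPM per kb of gene (log axis) of 68 of the 71 Kcn genes, grouped by subfamily, with 1 symbol per group (circle, P301S with Cdk5i; square, P301S with scrambled peptide; triangle, wild type; n = 3 libraries each). Levels run over a wide range within most subfamilies, while the 3 group symbols of a gene mostly lie on each other; Kcnj16 and Kcnj10 show the widest gaps.

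Spread within groups was small for most members. The pooled coefficient of variation had a median of 11.4% and was under 15% in 51 of 71 genes, with 3.24% for Kcnc1 as the lowest and 38.9% for Kcnk6, a gene of few counts, as the highest.

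No Kcn gene passed the test in any comparison (edgeR quasi-likelihood test, Benjamini-Hochberg adjusted p of at most 0.05 over 16046 genes). In Cdk5i against scrambled libraries 0 of 71 passed, where 0.0125% of all genes did. In Cdk5i against wild type 0 of 71 passed, where 0.0748% of all genes did, and in scrambled against wild type 0 of 71, where 0.081% did. At an unadjusted p under 0.05 there were 6 members in Cdk5i against scrambled (5.33% of all genes), 16 in Cdk5i against wild type (11% of all genes) and 11 in scrambled against wild type (10.1% of all genes). DESeq2 called 0, 2 and 0 members in these comparisons, and 27, 113 and 75 of all 16046 genes. The pair called in Cdk5i against wild type was Kcnab2 and Kcnip2.

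The median log2 fold change of the members was 0.03 in Cdk5i over scrambled (-0.01 over all genes), 0.03 in Cdk5i over wild type (-0.01 over all genes) and 0.01 in scrambled over wild type (0.01 over all genes). Positive values were found in 43 members in Cdk5i over scrambled (47.2% of all genes), 42 in Cdk5i over wild type (48.8% of all genes) and 39 in scrambled over wild type (51.7% of all genes). The median standard error of a member's log2 fold change was 0.11 in each comparison. A change of 1.5-fold or more in either direction lay outside the 95% interval of 57 members in Cdk5i over scrambled, 56 in Cdk5i over wild type and 56 in scrambled over wild type.

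**Figure D2:**
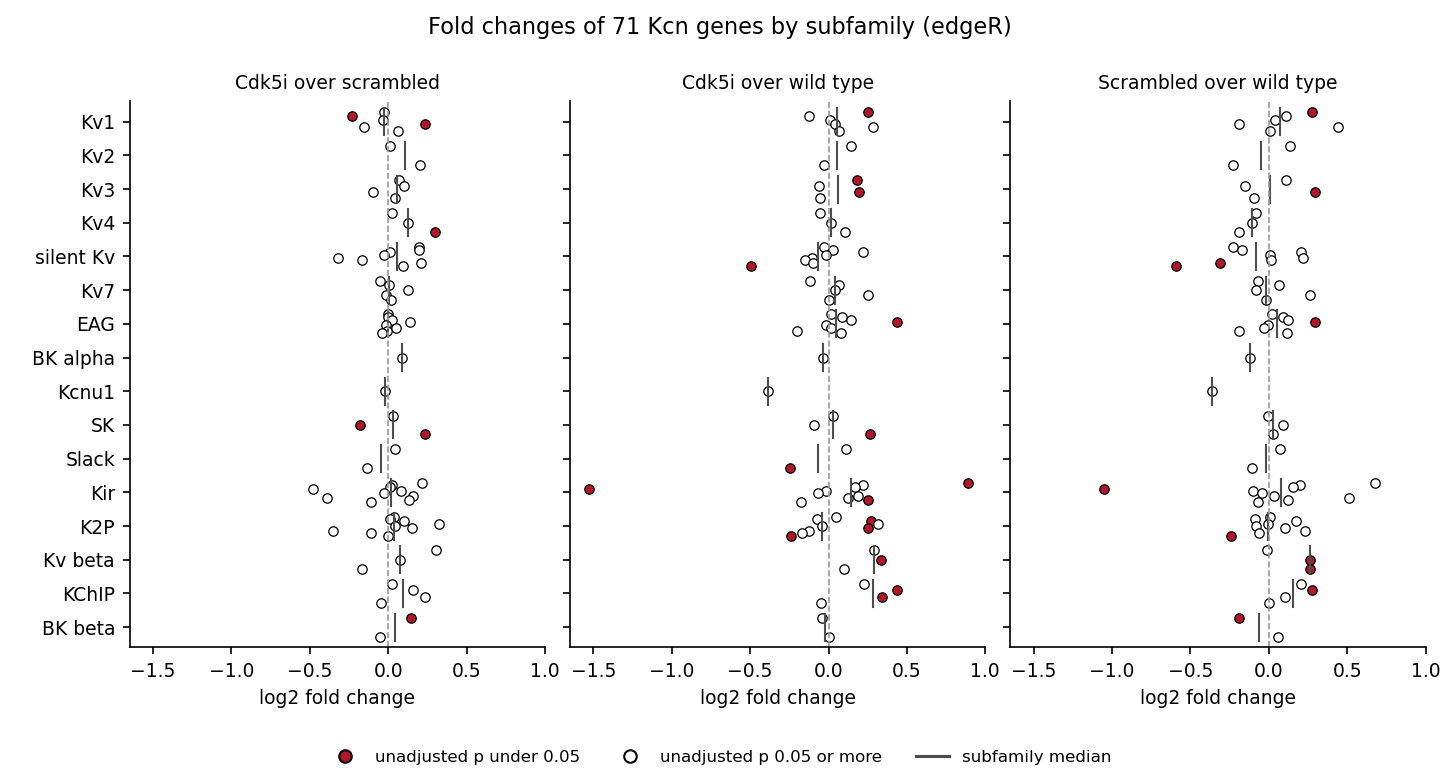
The log2 fold change (edgeR) of each of the 71 Kcn genes by subfamily, in Cdk5i over scrambled (left), Cdk5i over wild type (middle) and scrambled over wild type (right); filled points have an unadjusted p under 0.05 and short vertical lines are subfamily medians. Most points lie within 0.5 of zero, and the points farthest out in the middle and right panels belong to the low-count inward rectifiers Kcnj16 and Kcnj10.

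**Figure D3:**
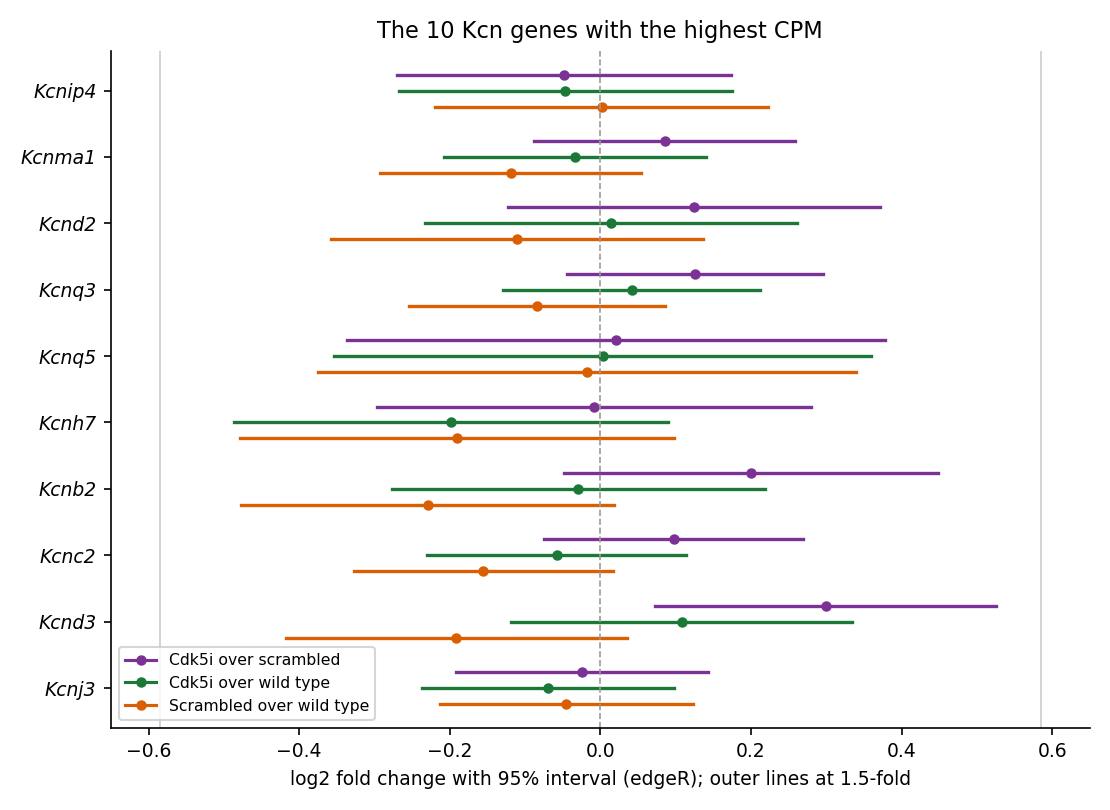
The log2 fold change with its 95% interval (edgeR) for the 10 Kcn genes with the highest mean CPM, in 3 comparisons; outer vertical lines mark 1.5-fold. Every interval lies inside those lines, and only that of Kcnd3 in Cdk5i over scrambled leaves out zero.

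The 3 members with the lowest p in a comparison with wild type included Kcnab2 both times. Kcnab2 encodes Kvβ2, the cytoplasmic subunit that carries Kv1 channels to axons, and its protein is a known substrate of cyclin-dependent kinases; the counts here measure its RNA only. It had 152, 158 and 141 CPM in Cdk5i, 152, 142 and 135 CPM in scrambled and 116, 121 and 121 CPM in wild-type libraries. All 6 peptide-treated P301S libraries were above all 3 wild-type libraries, and the 2 peptide groups overlapped. The log2 fold change was 0.34 ± 0.06 (SE) in Cdk5i over wild type (edgeR adjusted p = 0.121), 0.26 ± 0.06 in scrambled over wild type (adjusted p = 0.244) and 0.08 ± 0.06 in Cdk5i over scrambled (adjusted p = 0.966). With DESeq2 the adjusted p in Cdk5i over wild type was 0.00275. Over the alternatives tried it ran from 0.000703 to 0.392, with log2 fold changes of 0.30 to 0.38. The lowest adjusted p came from edgeR without a low-count filter, which called 408 of all genes, against 12 with the filter.

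Kcna1, a Kv1 pore that assembles with Kvβ subunits, had 44.4, 46.2 and 40.8 CPM in Cdk5i, 43.0, 45.3 and 45.5 CPM in scrambled and 34.9, 38.8 and 36.8 CPM in wild-type libraries. Here too every peptide-treated library lay above every wild-type library. Its log2 fold change was 0.25 ± 0.07 in Cdk5i over wild type (edgeR adjusted p = 0.240) and 0.28 ± 0.07 in scrambled over wild type (adjusted p = 0.253). Kcna2, the Kv1.2 pore that partners Kv1.1 beside nodes of Ranvier, had 58.6, 56.6 and 60.0 CPM in Cdk5i, 67.6, 75.6 and 62.4 CPM in scrambled and 58.5, 59.4 and 72.7 CPM in wild-type libraries. The Cdk5i libraries lay below the scrambled ones and overlapped the wild-type ones, and the log2 fold change in Cdk5i over scrambled was -0.23 ± 0.09 (edgeR adjusted p = 0.891). Kcna4, the fast inactivating Kv1.4 pore, averaged 34.4 ± 3.49 CPM in Cdk5i, 29.3 ± 3.84 in scrambled and 33.4 ± 1.41 in wild-type libraries (SD, n = 3 each). The other Kvβ genes were Kcnab1 with 478 ± 87.1, 387 ± 54.7 and 390 ± 48.8 CPM in Cdk5i, scrambled and wild-type libraries, and Kcnab3. Kcnab1 was highest in Cdk5i replicate 1 with 573 CPM, the library with the highest striatal marker sum of 4299 CPM; the part of that in the gene's level was not tested.

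**Figure D4:**
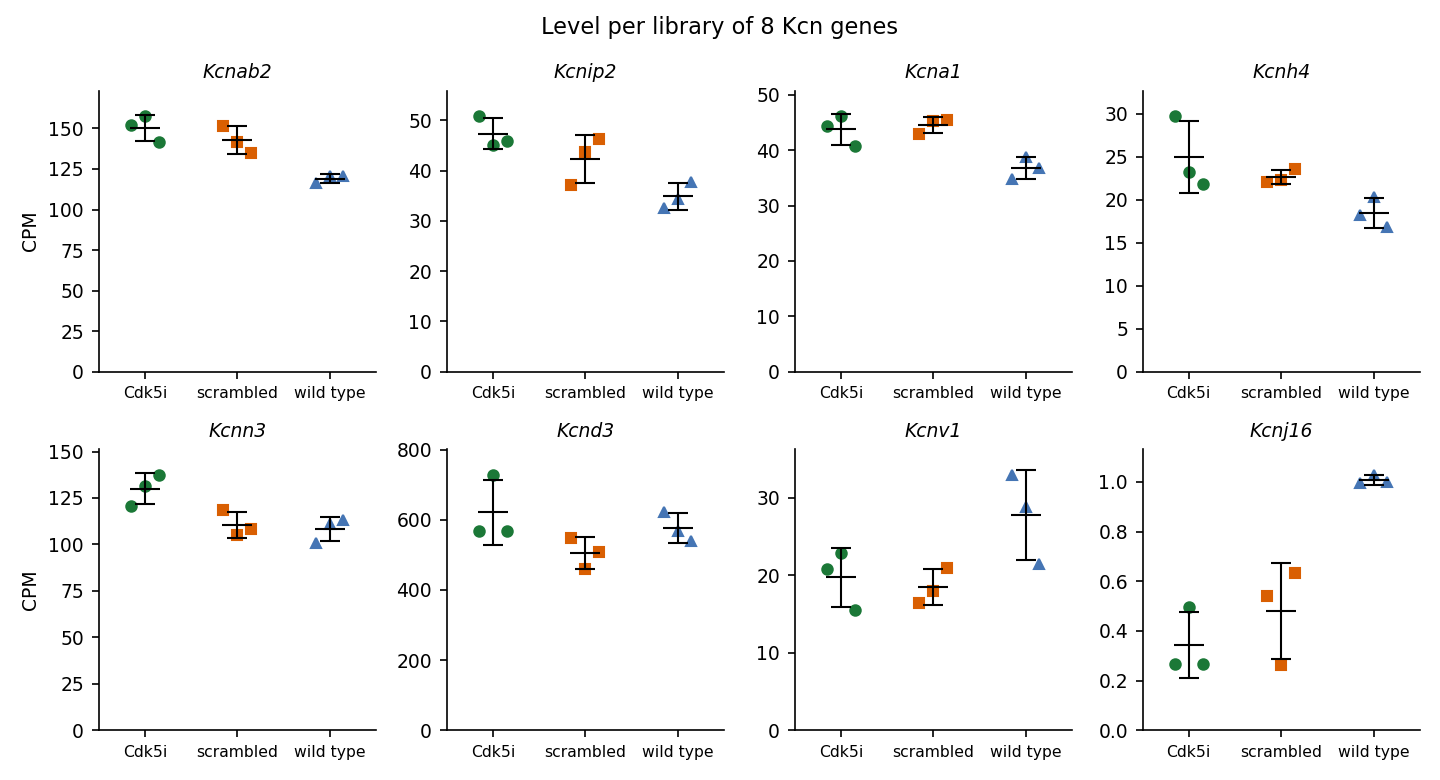
Level in CPM of 8 Kcn genes in each library, with Cdk5i at the left, scrambled in the middle and wild type at the right of each panel; points are libraries and bars are mean ± SD (n = 3 each). Kcnab2 and Kcna1 show both peptide groups above wild type, Kcnj16 shows both below it, and Kcnn3 and Kcnd3 show Cdk5i above scrambled.

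Kv3 pores showed small differences. Kcnc1, the Kv3.1 pore that lets neurons fire fast, had 167, 173 and 164 CPM in Cdk5i, 160, 166 and 154 CPM in scrambled and 144, 148 and 152 CPM in wild-type libraries. Each peptide-treated library lay above each wild-type library, by 0.18 ± 0.06 on the log2 scale in Cdk5i over wild type (edgeR adjusted p = 0.313). Kcnc2, the Kv3.2 pore common in interneurons, had 660, 690 and 595 CPM in Cdk5i, 626, 547 and 644 CPM in scrambled and 662, 683 and 679 CPM in wild-type libraries. The scrambled libraries were below the wild-type ones (log2 fold change -0.16 ± 0.08, edgeR adjusted p = 0.544), as they were for the summed inhibitory neuron markers; the part of those cells was not tested.

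Among Kv4 genes, Kcnd3, the Kv4.3 pore, had 567, 729 and 568 CPM in Cdk5i, 549, 459 and 507 CPM in scrambled and 623, 567 and 540 CPM in wild-type libraries. The Cdk5i libraries were all above the scrambled ones, Cdk5i replicate 2 by the most, and wild type lay between and overlapped both. In Cdk5i over scrambled the log2 fold change was 0.30 ± 0.10 (edgeR adjusted p = 0.833). Over the alternatives tried it ran from 0.17 to 0.37, with adjusted p from 0.00757 to 0.9998. The lowest adjusted p came from edgeR without a low-count filter, which called 159 of all genes, against 2 with the filter. Kcnd2 had 2827, 2155 and 2178 CPM in Cdk5i, 2042, 2131 and 2396 CPM in scrambled and 2189, 2620 and 2281 CPM in wild-type libraries. These groups overlapped throughout, and Cdk5i replicate 1 was the highest library.

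The KChIP genes that serve Kv4 pores differed from each other. Kcnip2, or KChIP2, had 50.8, 45.1 and 46.0 CPM in Cdk5i, 37.1, 43.7 and 46.4 CPM in scrambled and 32.6, 34.4 and 37.8 CPM in wild-type libraries. The Cdk5i libraries were above all wild-type libraries, and the scrambled ones overlapped both. On the log2 scale the fold change was 0.44 ± 0.09 in Cdk5i over wild type (edgeR adjusted p = 0.121) and 0.28 ± 0.09 in scrambled over wild type (adjusted p = 0.330). With DESeq2 the adjusted p in Cdk5i over wild type was 0.00995, and over the alternatives tried it ran from 4.2e-05 to 0.413. Here too the lowest came from edgeR without the low-count filter. Kcnip3, which also acts as the transcriptional repressor DREAM, averaged 99.7 ± 15.9 CPM in Cdk5i, 84.7 ± 10 in scrambled and 78.8 ± 1.88 in wild-type libraries (SD, n = 3 each); 35.1% of this gene is overlapped by other genes on its strand, so its count is uncertain. The log2 fold change of Kcnip4 lay between -0.05 and 0.00 in the 3 comparisons. Kcnip1 averaged 225 ± 30.3, 221 ± 9.26 and 192 ± 38.4 CPM in Cdk5i, scrambled and wild-type libraries, with overlapping groups.

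The silent modifiers form no channel alone but join Kv2 pores and change their gating. Kcnv1, the highest of them after Kcnf1 per length, had 20.8, 22.9 and 15.5 CPM in Cdk5i, 16.4, 18 and 20.9 CPM in scrambled and 33.0, 28.9 and 21.5 CPM in wild-type libraries. The scrambled libraries lay below every wild-type library, Cdk5i replicates 1 and 3 did as well, and Cdk5i replicate 2 was above the lowest of them. Relative to wild type, its log2 fold change was -0.49 ± 0.18 in Cdk5i over wild type (edgeR adjusted p = 0.384) and -0.59 ± 0.18 in scrambled over wild type (adjusted p = 0.346). Kcns3, a modifier known from parvalbumin neurons, averaged 11.1 ± 1.01 CPM in Cdk5i, 9.57 ± 0.84 in scrambled and 11.9 ± 0.22 in wild-type libraries, and the scrambled libraries were the lowest 3 of the 9 (SD, n = 3 each). The summed parvalbumin neuron markers ranged from 149 to 151 CPM in Cdk5i, 147 to 153 in scrambled and 136 to 160 in wild-type libraries.

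The M-current pores overlapped between groups or nearly so. Kcnq5 averaged 1619 ± 324, 1596 ± 293 and 1616 ± 166 CPM in Cdk5i, scrambled and wild-type libraries (SD, n = 3 each). Kcnq3 had 1888, 1836 and 1623 CPM in Cdk5i, 1680, 1544 and 1679 CPM in scrambled and 1703, 1767 and 1726 CPM in wild-type libraries. The scrambled libraries lay just below the wild-type ones, and the Cdk5i libraries spread over both. The 95% interval of the log2 fold change of Kcnq3 in Cdk5i over scrambled was -0.05 to 0.30. Kcnh7 averaged 1267 ± 207 CPM in Cdk5i, 1274 ± 185 in scrambled and 1454 ± 137 in wild-type libraries, with overlapping groups. Kcnh4, an EAG-type pore at 1.13 CPM per kb, had 29.7, 23.3 and 21.8 CPM in Cdk5i, 22.1, 22.3 and 23.6 CPM in scrambled and 18.2, 20.3 and 16.8 CPM in wild-type libraries. All peptide-treated libraries were above all wild-type ones, and Cdk5i replicate 1 was the highest. For this gene the log2 fold change was 0.43 ± 0.11 in Cdk5i over wild type (edgeR adjusted p = 0.216) and 0.30 ± 0.11 in scrambled over wild type (adjusted p = 0.411).

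Of the calcium-activated pores, Kcnn3, the SK3 channel of the afterhyperpolarization, had the lowest p of any member in Cdk5i against scrambled. It had 121, 132 and 138 CPM in Cdk5i, 118, 105 and 108 CPM in scrambled and 101, 111 and 113 CPM in wild-type libraries. The Cdk5i libraries were above every other library, and scrambled and wild type overlapped. In this gene the log2 fold change was 0.23 ± 0.07 in Cdk5i over scrambled (edgeR adjusted p = 0.768) and 0.26 ± 0.07 in Cdk5i over wild type (adjusted p = 0.235). Its relative Kcnn2, the SK2 channel, averaged 282 ± 17.3 CPM in Cdk5i, 320 ± 19.5 in scrambled and 300.6 ± 21.8 in wild-type libraries, at -0.18 ± 0.08 on the log2 scale in Cdk5i over scrambled (edgeR adjusted p = 0.922).

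Kcnma1 had 2994, 3124 and 2704 CPM in Cdk5i, 2717, 2713 and 2885 CPM in scrambled and 3125, 2987 and 2919 CPM in wild-type libraries. The scrambled libraries lay just below the wild-type ones, by -0.12 ± 0.08 on the log2 scale (edgeR adjusted p = 0.658). The BK beta gene Kcnmb2 averaged 115 ± 1.42 CPM in Cdk5i, 104 ± 7.43 in scrambled and 119 ± 6.72 in wild-type libraries, and Kcnmb4, the neuronal BK beta subunit, averaged 43.7 ± 3.09, 45.3 ± 5.73 and 43.6 ± 2.12 CPM (SD, n = 3 each). The sodium-activated pores were Kcnt1, the Slack channel, with 200 ± 8.6, 194 ± 13.3 and 184 ± 8.37 CPM, and Kcnt2 with 294 ± 39.3, 323 ± 32.1 and 348 ± 29.2 CPM, in Cdk5i, scrambled and wild-type libraries.

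In the comparisons with wild type, the largest fold changes of the family were in a pair of inward rectifiers of glia that are barely read in these neuronal nuclei. Kcnj16, the Kir5.1 subunit, had 6, 13 and 7 counts in Cdk5i, 14, 6 and 16 counts in scrambled and 21, 22 and 22 counts in wild-type libraries. All 6 peptide-treated libraries were below all 3 wild-type libraries. Wild type held 65 of its 127 counts, and the 62 of the peptide groups alone are under the sum of 100 that chose the members, so that rule favours a gene of this pattern. Its fold change on the log2 scale was -1.53 ± 0.39 in Cdk5i over wild type (edgeR adjusted p = 0.209) and -1.05 ± 0.37 in scrambled over wild type (adjusted p = 0.378). Its known partner Kcnj10, the Kir4.1 pore of astrocytes, had 32, 26 and 30 counts in Cdk5i, 19, 27 and 29 counts in scrambled and 13, 18 and 10 counts in wild-type libraries. Its order ran opposite to that of Kcnj16, at 0.89 ± 0.32 on the log2 scale in Cdk5i over wild type (edgeR adjusted p = 0.351). The 12 astrocyte markers summed to 841 to 1024 CPM in Cdk5i, 808 to 956 in scrambled and 935 to 982 in wild-type libraries, with none at 0. The oligodendrocyte markers, given above, were higher in scrambled than in wild-type libraries. The part of glia in the 2 genes' levels was not tested.

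The G protein-gated inward rectifiers Kcnj3, Kcnj6 and Kcnj9 carry the slow inhibition set off by GABA-B receptors. Kcnj6, the GIRK2 pore, had 354, 385 and 317 CPM in Cdk5i, 342, 293 and 327 CPM in scrambled and 299, 304 and 282 CPM in wild-type libraries. The Cdk5i libraries lay above every wild-type library and the scrambled ones overlapped both, with a log2 fold change of 0.25 ± 0.08 in Cdk5i over wild type (edgeR adjusted p = 0.307). Kcnj3 averaged 499 ± 32.0 CPM in Cdk5i, 508 ± 31.1 in scrambled and 524 ± 36.1 in wild-type libraries, and Kcnj9 averaged 56.5 ± 11.9, 60.9 ± 3.20 and 63.8 ± 8.77 CPM (SD, n = 3 each). For both the groups overlapped.

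K2P leak channels were led per length by Kcnk9, the acid-sensitive TASK-3 channel, which had 100.1, 112 and 96.9 CPM in Cdk5i, 104, 94.9 and 111 CPM in scrambled and 133, 108 and 124 CPM in wild-type libraries. Wild-type replicate 2 lay within the range of the peptide groups and the other wild-type libraries lay above it. Both log2 fold changes over wild type were negative, at -0.24 ± 0.09 in Cdk5i over wild type (edgeR adjusted p = 0.347) and -0.24 ± 0.09 in scrambled over wild type (adjusted p = 0.388). Kcnk2, the mechanosensitive TREK-1 channel, averaged 71.3 ± 6.45 CPM in Cdk5i, 69.2 ± 6.21 in scrambled and 73.4 ± 8.02 in wild-type libraries (SD, n = 3 each). Kcnk12 averaged 27.6 ± 2.87, 25.8 ± 3.71 and 22.9 ± 0.94 CPM in these groups. Kcnk4 had fewer CPM in each Cdk5i than in each scrambled library, at 5.14 ± 1.45 and 6.55 ± 0.19 CPM, but 13.4% of it is overlapped by another gene on its strand.

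Members whose groups did not overlap were counted over the whole family. In Cdk5i against scrambled, 4 members were higher in each Cdk5i library (4.95% of all genes) and 2 lower (5.38% of all genes). In Cdk5i against wild type 11 members were higher (8.03% of all genes) and 1 lower (8.22% of all genes), and in scrambled against wild type 9 were higher (8.26% of all genes) and 7 lower (8.03% of all genes). These counts describe the list; no test of the list was made. By kind, the 9 auxiliary genes had a median log2 fold change of 0.23 in Cdk5i over wild type and 0.10 in scrambled over wild type, and the 36 voltage-gated pores 0.02 and 0.01, beside -0.01 and 0.01 over all genes. In Cdk5i over scrambled these medians were 0.08 for the auxiliary genes and 0.02 for the voltage-gated pores. In Cdk5i over wild type and scrambled over wild type, the 10 inward rectifiers had medians of 0.15 and 0.08. The 9 K2P genes had -0.04 and -0.01, and the 7 genes of the calcium- or sodium-activated class -0.03 and -0.0036. Single auxiliary genes ran from -0.05 to 0.44 in Cdk5i over wild type.

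Kcn genes are long, and fold changes in these libraries varied with gene length. The members' median length was 52.2 kb against 26.0 kb over all genes tested, and 32.4% of members exceeded 100 kb, where 16.2% of all genes did. In Cdk5i over scrambled, 14 of the 23 members over 100 kb had a positive log2 fold change, beside 70.7% of all genes of that length, and 29 of the 48 shorter members did, beside 42.6% of shorter genes. In scrambled over wild type the counts were 7 of 23 long members, beside 38.1% of long genes, and 32 of 48 shorter ones, beside 54.4%. In Cdk5i over wild type they were 10 of 23, beside 52.6%, and 32 of 48, beside 48%. Kcnab2, Kcnip2 and Kcna1 are in the shorter class, and Kcnd3, Kcnn3, Kcnma1 and Kcnq3 in the longer one. The part of length in each gene's difference was not tested.

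Genes that bind, anchor or act beside potassium channels gave the same count of calls. Of 59 listed partners 55 were tested and 0 passed in each comparison, with 4 at an unadjusted p under 0.05 in Cdk5i against scrambled (5.33% of all genes), 8 in Cdk5i against wild type (11% of all genes) and 12 in scrambled against wild type (10.1% of all genes). Cntnap2, the adhesion protein that clusters Kv1 channels beside the node, averaged 2810 ± 138 CPM in Cdk5i, 2501 ± 167 in scrambled and 2769 ± 156 in wild-type libraries (SD, n = 3 each). The scrambled libraries lay below all the others, with a log2 fold change of 0.17 ± 0.08 in Cdk5i over scrambled (edgeR adjusted p = 0.923). Ank3, the ankyrin-G scaffold that holds Kv7 channels at the axon initial segment, averaged 1570 ± 68.1 CPM in Cdk5i, 1395 ± 26.8 in scrambled and 1427 ± 114 in wild-type libraries (SD, n = 3 each), with a log2 fold change of 0.17 ± 0.08 in Cdk5i over scrambled (edgeR adjusted p = 0.922). The Kv4 partners Dpp6 and Dpp10 averaged 1815 ± 116 and 5050 ± 804 CPM in Cdk5i, 1644 ± 80.0 and 5069 ± 696 in scrambled and 1746 ± 220 and 5211 ± 431 in wild-type libraries. The pacemaker channel Hcn2 averaged 30.4 ± 1.43, 31.4 ± 1.30 and 27.5 ± 2.38 CPM in these groups, and the Kv2 partner Amigo1 averaged 21.6 ± 1.77, 22.2 ± 0.38 and 23.0 ± 2.23 CPM.

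Some members lie side by side on a chromosome. Kcna5, Kcna1 and Kcna6 follow each other on chromosome 6 with gaps of 105 and 61.9 kb, and their mean levels were 0.61, 6.97 and 1.79 CPM per kb. Kcna3 and Kcna2 lie 63.1 kb apart on chromosome 3 and averaged 1.74 and 4.58 CPM per kb. Kcnj16 and Kcnj2 lie 38.2 kb apart on chromosome 11 and averaged 0.0102 and 1.17 CPM per kb. Kcnj9 and Kcnj10 lie 11.9 kb apart on chromosome 1 and averaged 6.85 and 0.0289 CPM per kb. Kcnq1, with 1668 counts in all libraries, holds the non-coding Kcnq1ot1, with 121495 counts, within its bounds on the opposite strand. The 2 were told apart only by the strand of the read. Reads given the wrong strand would add to the count of Kcnq1, and their share was not tested.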

How the data were processed

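Per the file headers, the authors counted read pairs with featureCounts 2.0.0 over whole genes (exons and introns) of Ensembl release 102, with reversed strand. The deposited values are raw counts, 1 table per library. STAR 2.7.9a, DESeq2 1.36.0, Subread 2.0.0 and build GRCm38 are named in the submitters' processing notes. RNA was extracted with a kit for fixed tissue and libraries were made with a stranded total RNA kit for small input, per the labels' protocols. Read pairs shared by genes overlapping on the same strand are left out under featureCounts' default.

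Symbols were found for 99.5% of gene IDs. Counts were fitted in edgeR 4.0.16 (R 4.3.3; filterByExpr, TMM, robust quasi-likelihood, 3 group means, 9 libraries, 6 residual degrees of freedom). All 71 members passed the filter, and p-values were adjusted over all 16046 genes tested. CPM are scaled by TMM. Named genes were the top of each subfamily and, in subfamilies of 4 or more, the lowest. Also named were the strongest non-overlapping members, the 3 lowest p per comparison, those at the count threshold, and genes listed for known roles. Kcnk13 and Kcnj2 were added after their values were seen. Kcna3 and Kcna6 are outside these rules too and are named as neighbours of other members. The members and lists were chosen with earlier results of these data known. On average over genes, no 2 libraries of a group agreed within counting error (mean chi-square per gene of 8.96 to 27.0 over the pairs of libraries). Alternatives were DESeq2 1.42.0, limma-voom 3.58.1, other scaling, filters and members, the replicate block and leaving out each library. Some members and partners are not reported here.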

Additional observations from a re-analysis of the deposited data

How the results depend on the processing

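Of the 18 alternative settings, those that changed the count of Kcn genes called were the fit without a low-count filter and DESeq2. Without the filter, 32394 genes were tested and the members called were 1 in Cdk5i against scrambled (Kcnd3), 9 in Cdk5i against wild type (Kcnab2, Kcnh4, Kcnip2, Kcnip3, Kcnj16, Kcnj6, Kcnk13, Kcnn3 and Kcnv1) and 2 in scrambled against wild type (Kcnab2 and Kcnv1). All genes called were then 159, 408 and 318, against 2, 12 and 13 with the filter. DESeq2 called 2 members in Cdk5i against wild type, and 27, 113 and 75 of all genes. The cause was not tested. Leaving out 1 library gave 0 members called in every case. All genes called were 2 to 18 over these fits. The median log2 fold change of the members ranged over these from -0.01 to 0.07 in Cdk5i over scrambled, from -0.0033 to 0.0918 in Cdk5i over wild type, highest without wild-type replicate 2, and from -0.05 to 0.07 in scrambled over wild type. Of 2244 alternative values of the 47 named members, 2232 moved by no more than the spread between replicates and 12 moved by more. Leaving out 1 of the 3 libraries of a group can hardly move a value beyond that spread, so this count says little about those settings. Of values of at least 0.2, 0 changed sign. Libraries with the same replicate number did not deviate together (correlations -0.31 to 0.17, 1 of 9 pairs over 0.1), so the numbers were not taken as pairs. With the replicate block, 0 members were called in each comparison and 2 genes of all tested in each.

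With 3 libraries a group, log2 fold changes of 0.44 ± 0.09 (SE) for Kcnip2 and -0.49 ± 0.18 for Kcnv1 in Cdk5i over wild type did not pass the edgeR test. Larger ones in genes of few counts, -1.53 for Kcnj16 and 0.89 for Kcnj10, did not pass it either. Kcnj16, Kcnk6 and Kcnj10 rest on 127, 119 and 204 counts.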
